A study of Mus musculus with 45 samples.

Results

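The genes described here encode antibody chains or mark the plasma cells that secrete them. They were taken as a fixed list of 10 symbols, all of which were found among the 55367 gene symbols measured. The list held the heavy chain constant regions Ighm, Igha, Ighg1 and Ighg2b, the kappa light chain constant region Igkc, the joining chain Jchain, and Mzb1, Xbp1, Prdm1 and Sdc1. Of these, 9 had more than 10 counts in each of the 4 tissues and could be tested. Mzb1 had 10 counts in all 45 libraries together and was not tested in any tissue.

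Female Balb/c mice received a porous polycaprolactone scaffold under the skin at 7 to 8 weeks of age, and 2 weeks later an injection of 2000000 cells of a breast cancer line into the mammary fat pad. The lines were 67NR, 4T07 and 4T1, sister lines from a single mouse mammary tumor that differ in how far they spread, 4T1 being the metastatic line. Scaffolds, lungs, spleens and primary tumors were taken on day 14, and scaffolds, lungs and spleens also came from healthy mice that carried a scaffold but no tumor (Control). Each of the 15 groups had 3 libraries, giving 12 scaffolds, 12 lungs, 12 spleens and 9 tumors. Replicate numbers below follow library order within a group, and the same number in different tissues need not be the same mouse. The lines are transplanted cell lines, so each tumor type stands for 1 line and not for a class of tumors.

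Antibodies are made by B cells, which join a heavy chain to a kappa or lambda light chain. On activation a B cell can switch its heavy chain from IgM to an IgG, IgA or IgE constant region and can mature into a plasma cell, a factory cell that turns much of its transcription over to antibody chains. Spleen is rich in resting IgM-bearing B cells and short-lived plasma cells, whereas IgA plasma cells are best known from mucosal tissues such as the gut and airways. In bulk tissue, a lower level from fewer cells of a type and one from less RNA per cell cannot be told apart.

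Library totals ranged from 3491888 to 8175380 counts, and each level below is a CPM value, the gene's count per 1000000 counts of its library, whereas log2 fold changes come from fits that rescale the libraries and can differ from ratios of CPM. The 3 libraries of the 4T07 lungs stood apart from the other lungs. Tlx1, a transcription factor of spleen stroma, was at 11.1, 13.8 and 14.6 CPM in them, against 0.324 to 1.72 CPM in the 9 other lungs and 11.9 to 16.7 CPM in 4T07 spleens. Over all 3 spleen stroma markers examined, the summed level was 19.3 to 27.9 CPM in 4T07 lungs and 0.324 to 1.05 CPM in control lungs, with Nkx2-5 at 0.217 to 0.826 CPM in the former and at 0 in the latter. The summed level of 6 erythroid markers was 1362 to 1863 CPM in 4T07 lungs and 134 to 150.4 CPM in control lungs, that of 8 exocrine pancreas markers was 392 to 531 and 11.5 to 17.3 CPM, and that of 6 lung epithelial markers was 5574 to 14474 and 35856 to 37704 CPM. A 4T07 scaffold (replicate 1) had Tlx1 at 4.65 CPM, against 0.18 to 1.11 CPM in the 9 scaffolds of the other groups. A 4T07 tumor (replicate 1) also had Tlx1 at 4.42 CPM. The summed level of 8 neutrophil markers was 23543 to 28239 CPM in 4T07 lungs, 11614 to 27533 in 4T1 lungs and 233 to 294 in control and 67NR lungs. Each result below that rests on 4T07 lungs, or on the 4T07 scaffold or tumor with raised Tlx1, is to be read beside these levels. Their part in it was not tested. Pancreas markers were high in a 4T1 spleen (replicate 3), at a summed level of 3704 CPM, and next highest among spleens in a control spleen (replicate 2), at 811 CPM.

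The files here held no sequence for the antibody constant regions or for Mzb1. Promoters, from 250 bases before to 50 bases after the start of the gene, were found in RefSeq (GRCm38.p6) for 4 members, Jchain, Xbp1, Sdc1 and Prdm1. They were searched on both strands for ATGCAAAT (the octamer of immunoglobulin promoters), GAGGAA (a core of PU.1 sites), TGACGTG (a core of unfolded protein response elements), CCAAT and TATAAA. Jchain is shown because its level moved with the antibody chains in 4T07 lungs, and Prdm1 and Sdc1 because theirs moved the other way. Capitals mark the matches.
Jchain, chr5:88527848-88528147, minus strand: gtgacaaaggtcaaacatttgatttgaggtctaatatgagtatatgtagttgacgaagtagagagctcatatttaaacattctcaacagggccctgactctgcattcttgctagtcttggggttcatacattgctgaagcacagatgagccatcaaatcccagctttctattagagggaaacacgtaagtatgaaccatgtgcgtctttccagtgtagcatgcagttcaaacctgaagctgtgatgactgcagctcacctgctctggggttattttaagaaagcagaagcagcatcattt
Prdm1, chr10:44458699-44458998, minus strand: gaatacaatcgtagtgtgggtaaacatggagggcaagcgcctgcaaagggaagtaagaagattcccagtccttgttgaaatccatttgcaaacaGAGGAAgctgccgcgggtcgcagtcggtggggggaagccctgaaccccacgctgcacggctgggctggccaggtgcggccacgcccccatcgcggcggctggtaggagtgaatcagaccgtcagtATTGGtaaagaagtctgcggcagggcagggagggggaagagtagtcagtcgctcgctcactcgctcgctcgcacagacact
Sdc1, chr12:8771146-8771445, plus strand: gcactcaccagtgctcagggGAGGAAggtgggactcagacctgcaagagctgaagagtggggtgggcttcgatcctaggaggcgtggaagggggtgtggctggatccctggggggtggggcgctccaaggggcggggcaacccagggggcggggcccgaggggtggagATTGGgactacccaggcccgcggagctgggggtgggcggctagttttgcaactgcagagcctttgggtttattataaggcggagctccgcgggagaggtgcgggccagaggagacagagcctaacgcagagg
None of the 5 motifs was in the Jchain or Xbp1 window. The Prdm1 and Sdc1 windows each held GAGGAA on the strand of the gene and CCAAT on the opposite strand, where it reads ATTGG. Among 32851 promoters of the same length, 28.3% held GAGGAA and 37.4% held CCAAT, while 1.74% held the octamer, 2.01% the TGACGTG core and 13.6% TATAAA. These matches are a description of the letters in the window.

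In mice without a tumor, all 6 antibody chain and joining chain genes were much higher in spleen than in lung or scaffold, whereas Prdm1 and Sdc1 were lower there. Igkc was at 2902, 3289.8 and 3613 CPM in control spleens, 68.3, 88.4 and 102 CPM in control lungs and 26.9, 35.9 and 50.8 CPM in control scaffolds, and no spleen overlapped a lung or scaffold. Between spleen and lung, 6 of the 9 tested members were higher and 2 lower by edgeR's quasi-likelihood test, counting as called a fold change above 2 whose adjusted p was below 0.10. Of all genes tested, 19.7% were called higher and 20.2% lower. The log2 fold change of spleen over lung was 5.28 ± 0.29 (SE) for Igkc and 2.23 ± 0.17 for Igha. Between spleen and scaffold, 6 were also higher and 2 lower, among 17.5% of genes higher and 16.9% lower, with Ighm at 5.82 ± 0.26, adjusted p = 3.54e-10. Prdm1, a repressor that drives plasma cell maturation and is used by other cells as well, was at 14.8, 18.1 and 18.8 CPM in spleens and 38.4, 46.9 and 48.3 CPM in scaffolds (-1.54 ± 0.16, adjusted p = 2.02e-06). Sdc1 (syndecan-1, or CD138), a surface marker of plasma cells and of epithelia, was at 12.3, 14.2 and 20.8 and 60.0, 97.6 and 98.3 CPM (-2.61 ± 0.22, adjusted p = 1.38e-07). Between lung and scaffold, 1 of 9 members was higher, as were 17.9% of genes. That member was Igha, the constant region of the mucosal antibody class, at 21.6, 21.7 and 26.7 CPM in lungs and 6.14, 7.13 and 7.97 CPM in scaffolds (1.51 ± 0.19, adjusted p = 1.10e-05). The plot of levels shows each gene by tissue.

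**Figure D1:**
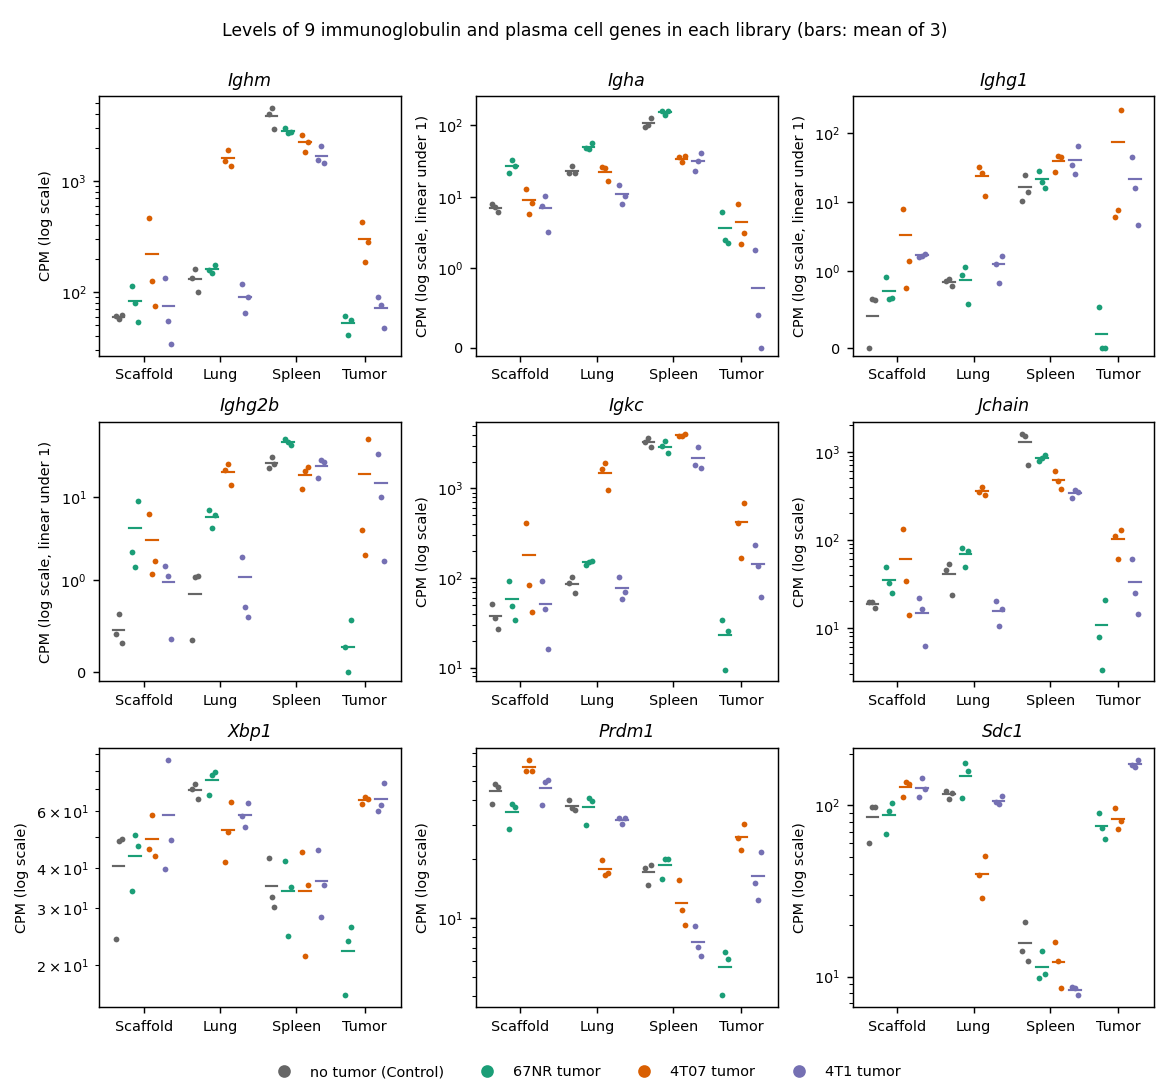
Level of the 9 tested members in each of 45 libraries, in CPM on a log scale (linear under 1 CPM where a library was at or near 0), by tissue and group, with a bar at the mean of 3 libraries. The highest levels of Ighm, Igkc, Jchain and Igha were in spleens and those of Ighg1 and Ighg2b in a 4T07 tumor, 4T07 lungs stood above the other lungs for Ighm, Igkc and Jchain, and Igha was highest in the 67NR group of scaffolds, lungs and spleens.

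The study compared tumor-bearing with healthy mice within each tissue, to find what distinguishes a metastatic from a nonmetastatic tumor. In scaffolds, none of the 9 members passed between 67NR and control mice, a comparison in which 0% of 22156 genes passed. At an unadjusted p under 0.05 there were 3 members, and DESeq2 called 1. Against the same control scaffolds, 5 members rose with 4T07, as did 3.85% of genes, and no member passed with 4T1 (0.0226% of genes in either direction), with 1 member at an unadjusted p under 0.05 in edgeR and none called by DESeq2. Between 4T07 and 67NR scaffolds 1 member rose (2.82% of genes) and 1 fell (3.03%), and between 4T1 and 67NR 1 fell (0.0135%). Between 4T1 and 4T07 none passed (1% in either direction), with 4 at an unadjusted p under 0.05 in edgeR and 1 called by DESeq2. In lungs, 1 member rose with 67NR (2.52% of genes), 5 rose (15.3%) and 2 fell (13.7%) with 4T07, and 2 fell with 4T1 (1.05%), all against the same control lungs. Relative to 67NR lungs, 5 rose (14.4%) and 1 fell (15.3%) with 4T07, and 3 fell with 4T1 (1.8%). Relative to 4T07 lungs, 1 was higher (11.6%) and 6 lower (11.9%) in 4T1 lungs. In spleens, none passed between 67NR and control (2.26% in either direction), with 5 at an unadjusted p under 0.05 in edgeR and none called by DESeq2. Against the same controls, 1 rose and 2 fell with 4T07 (8.26% and 10.3% of genes) and with 4T1 (9.84% and 10%). Relative to 67NR spleens, 1 was higher and 2 lower with 4T07 (6.5% and 8.2%) and 1 higher and 1 lower with 4T1 (10.3% and 10.4%). None passed between 4T1 and 4T07 spleens (2.33% in either direction), with 2 at an unadjusted p under 0.05 in edgeR and none called by DESeq2. In tumors, where the threshold was an adjusted p under 0.05, 7 rose in 4T07 (17.1% of genes), and 6 rose (11.6%) and 1 fell (9.07%) in 4T1, both against 67NR. Between 4T1 and 4T07 tumors 1 was higher (3.82%) and 4 lower (4.79%).

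**Figure D2:**
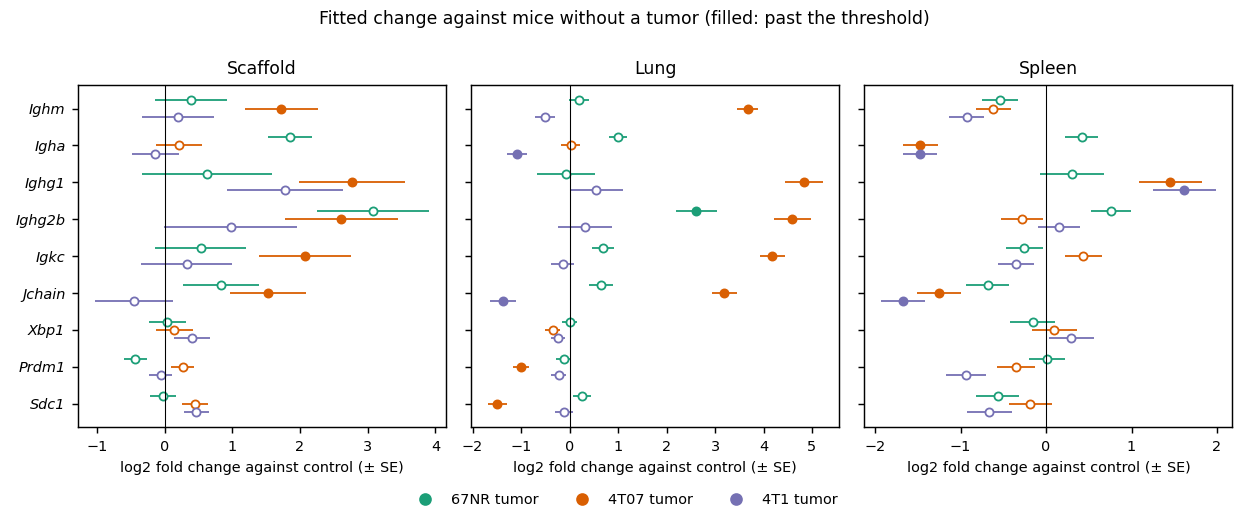
Fitted log2 fold change (x axis, ± SE) of the 9 tested members against control mice in scaffolds, lungs and spleens, with 1 color per tumor line and filled points for members past the threshold. The lines share the same controls, and the x axes differ between panels. 4T07 lungs had the largest shifts, and Igha lay to the right of 0 with 67NR in the 3 tissues and to the left of 0 with 4T07 and 4T1 in spleens.

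Igha, the IgA heavy chain, was higher with 67NR than with 4T07 or 4T1 in scaffolds and spleens, and higher than with 4T1 in lungs and tumors. In scaffolds it was at 21.2, 26.7 and 32.9 CPM with 67NR, 6.14, 7.13 and 7.97 in controls, 5.70, 8.23 and 12.8 with 4T07 and 3.23, 7.35 and 10.4 with 4T1. All 3 scaffolds of the 67NR group lay above the other 9. The 11 B cell markers had a summed level of 266 to 335 CPM in them, 199 to 208 in controls and 199 to 343 with 4T07 and 4T1. For the 5 lymph node stroma markers measured it was 43.0 to 50.3, 16.7 to 38.0 and 15.1 to 132 CPM, with Ccl19 and Ccl21a at 0 in every scaffold, and the part of these markers in the Igha level was not tested. The log2 fold change of 67NR over control was 1.86 ± 0.32 (SE), with an unadjusted p of 2.91e-05 and an adjusted p of 0.644 by edgeR, in a comparison in which no gene passed. DESeq2 gave 1.85 with an adjusted p of 0.00385 for the same contrast, and edgeR fitted on these 2 groups alone gave an adjusted p of 0.0634. Against 67NR scaffolds Igha fell with 4T07 (-1.65 ± 0.31, adjusted p = 0.00444) and with 4T1 (-2.00 ± 0.33, adjusted p = 0.0721). The call for 4T1 was lost when any of 6 of the 12 scaffolds was left out (control replicate 1, each 67NR scaffold, and 4T1 replicates 1 and 3), with log2 fold changes of -2.14 to -1.68.

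In lungs Igha was at 46.3, 47.7 and 56.0 CPM with 67NR, 21.6, 21.7 and 26.7 in controls, 16.7, 25.0 and 26.0 with 4T07 and 8.05, 10.2 and 14.5 with 4T1. The 67NR lungs were again above the other 9, and the 4T1 lungs were below the other 9. The rise with 67NR over control, 0.99 ± 0.19, adjusted p = 0.00373, was just under the 2-fold limit. With 4T1, Igha fell against control (-1.09 ± 0.21, adjusted p = 0.00221) and against 67NR (-2.08 ± 0.20, adjusted p = 5.64e-07). In 4T07 lungs, which carried spleen stroma markers, Igha did not rise along with the other antibody genes (log2 fold change over control 0.02 ± 0.20, adjusted p = 0.952), and it was higher there than in 4T1 lungs (4T1 over 4T07, -1.10 ± 0.21, adjusted p = 3.01e-04). The falls with 4T1 against control and against 4T07 were inside a factor of 2 without 4T1 replicate 2 (-0.92 and -0.95), and the former also without control replicate 2.

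In spleens Igha was at 94.0, 102 and 125 CPM in controls and 142, 157 and 159 with 67NR, but at 30.4, 35.6 and 36.9 with 4T07 and 23.0, 31.8 and 41.1 with 4T1. No 4T07 or 4T1 spleen reached the lowest control or 67NR spleen. It fell against control with 4T07 (-1.47 ± 0.20, adjusted p = 6.15e-05) and with 4T1 (-1.48 ± 0.20, adjusted p = 4.81e-05), and 67NR against control was 0.42 ± 0.19, adjusted p = 0.264. Relative to 67NR, the fall was -1.89 ± 0.20 with 4T07 (adjusted p = 7.84e-06) and -1.89 ± 0.20 with 4T1 (adjusted p = 7.31e-06). In tumors Igha was scarce, with 40, 63 and 12 counts over the 3 libraries of 67NR, 4T07 and 4T1. It was lower in 4T1 than in 67NR tumors (-2.37 ± 0.77, adjusted p = 0.0281), at 0, 0.41 and 1.83 against 2.26, 2.52 and 6.18 CPM, with no overlap between them, and lower than in 4T07 tumors (4T1 over 4T07, -2.41 ± 0.74, adjusted p = 0.0397), which were at 2.18, 3.10 and 8.03 CPM. Against 67NR the call was lost without 67NR replicate 1 or 4T1 replicate 2 or 3, and against 4T07 without 4T07 replicate 1 or 4T1 replicate 2 or 3. That 4T07 tumor had raised Tlx1 and the highest Igha level of its group, 8.03 CPM. The log2 fold changes over all left-out tumors were -4.18 to -1.80 and -4.17 to -1.63, with adjusted p of up to 0.133 and 0.233.

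Ighm, the constant region of the first antibody class a B cell makes, was at 2966, 3972 and 4526 CPM in control spleens, 2716, 2765 and 2972 with 67NR, 1809, 2259 and 2602 with 4T07 and 1462, 1556 and 2049 with 4T1. All 4T07 and 4T1 spleens were below every control and 67NR spleen. No fold change in spleens passed the limit of 2, and that of 4T1 over control was -0.93 ± 0.21, adjusted p = 0.00298. In lungs Ighm was at 1373, 1499 and 1914 CPM with 4T07 and at 64.1 to 176 CPM in the other 9. The rise of 4T07 over control was 3.67 ± 0.22, adjusted p = 5.88e-11. In scaffolds Ighm was at 74.4, 124 and 463 CPM with 4T07 and 57.0, 60.6 and 61.7 in controls, a rise of 1.72 ± 0.54, adjusted p = 0.0459, with the highest value in the scaffold with Tlx1. Ighg1, Ighg2b and Jchain rose in the same comparison (2.77 ± 0.78, adjusted p = 0.0299, 2.61 ± 0.84, adjusted p = 0.0532 and 1.53 ± 0.56, adjusted p = 0.0873), as did Igkc. Without that library none of these 5 calls remained. Leaving out a control scaffold left 2, 1 and 1 of them (replicates 1, 2 and 3).

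Ighg1 and Ighg2b encode switched IgG heavy chains. IgG genes are similar in sequence, and Balb/c mice carry an IgG2a allele in place of the Ighg2c gene of the reference, so reads can be shared or misplaced among them. In spleens Ighg1 was at 10.3, 14.0 and 24.7 CPM in controls, 15.9, 19.7 and 28.5 with 67NR, 27.4, 44.4 and 46.1 with 4T07 and 25.2, 34.5 and 64.0 with 4T1. It rose with 4T07 (1.46 ± 0.37, adjusted p = 0.00801) and 4T1 (1.62 ± 0.37, adjusted p = 0.00361) while Igha fell in the same spleens, and against 67NR it rose as well (1.15 ± 0.36, adjusted p = 0.0345 and 1.31 ± 0.36, adjusted p = 0.0127). Against 67NR the call for 4T07 was lost without 67NR replicate 2 or 3 or 4T07 replicate 2 (adjusted p of up to 0.134), and that for 4T1 without 4T1 replicate 3 (0.81, adjusted p = 0.111). That 4T1 spleen, at 64.0 CPM, and control replicate 2, at 24.7 CPM, had the highest pancreas markers among spleens. The part of these markers in the Ighg1 level was not tested. Ighg2b was higher with 67NR, at 22.5, 25.0 and 30.5 CPM in controls and 43.3, 47.3 and 50.5 with 67NR (0.76 ± 0.24, adjusted p = 0.0901, under the 2-fold limit), with no overlap. It was lower with 4T07 than with 67NR (-1.04 ± 0.24, adjusted p = 0.00603), at 12.8, 20.7 and 23.2 CPM, and 4T1 spleens were at 17.3, 26.5 and 28.6 CPM. That fall was inside a factor of 2 without 67NR replicate 1 (-0.98) or 4T07 replicate 1 (-0.80).

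Ighg2b was also higher with 67NR outside the spleen, from few counts. In lungs it was at 4.22, 6.08 and 7.09 CPM with 67NR and 0.349, 1.08 and 1.13 in controls, and it was the only member called between these groups (2.61 ± 0.43, adjusted p = 0.00172). The 3 lungs of 67NR held 105 counts and those of controls 15, a ratio of pooled CPM of 6.68 (95% interval 3.87 to 12.4), which covers counting error only. The lymph node stroma markers summed to 30.2 to 136 CPM in these lungs and 9.06 to 13.2 in controls, with Ccl19 and Ccl21a at 0 in both, and the B cell markers to 329.6 to 400.0 and 361 to 396 CPM. Their part in the Ighg2b level was not tested. In scaffolds the levels were 1.44, 2.22 and 9.01 and 0.315, 0.42 and 0.633 CPM (3.08 ± 0.83, adjusted p = 0.998), again without overlap, and the call was not made. In 4T1 lungs Ighg2b was at 0.6, 0.706 and 1.93 CPM and fell against 67NR (-2.30 ± 0.40, adjusted p = 7.56e-04). In 4T07 lungs Ighg1 (12.1, 26.6 and 32.8 CPM, against 0.809, 0.872 and 0.902 in controls) and Ighg2b (14.3, 21.4 and 25.2 CPM) were both above the other 9 lungs.

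Igkc, the kappa light chain, was at 2902, 3289.8 and 3613 CPM in control spleens, 2465, 2979.7 and 3359 with 67NR, 3813, 3889.5 and 4071 with 4T07 and 1713, 1845 and 2926 with 4T1. All 4T07 spleens were above all others for this gene, yet the fold change over control was below 2 (0.44 ± 0.21, adjusted p = 0.15). The lambda constant regions did not follow. Iglc1, Iglc2 and Iglc3 all fell in spleens with 4T07 (-1.57 ± 0.21, -1.89 ± 0.25 and -1.89 ± 0.26, adjusted p of 5.94e-05, 4.05e-05 and 6.74e-05) and with 4T1 (-1.98 ± 0.22, -1.81 ± 0.25 and -1.93 ± 0.26). The lambda genes are close copies of each other, so their counts may be split among them.

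In lungs Igkc was at 951, 1632 and 1917 CPM with 4T07, 139, 153 and 156 with 67NR, 68.3, 88.4 and 102 in controls and 58.9, 70.0 and 103 with 4T1. The 4T07 lungs (4.18 ± 0.26, adjusted p = 7.31e-11) lay above every other lung, and their range overlapped that of the 4T1 spleens. The mean CPM of Igkc in 4T07 lungs was 38.2% of that in 4T07 spleens, with Ighm at 71.8%, Jchain at 74.4% and Igha at 65.8%. Ighg1 was at 60.8% and Ighg2b at 107%. Of the spleen stroma markers, Tlx1 was at 88.0% and Nkx2-3 at 52.7%. All 67NR lungs were above all control lungs for Igkc, at 0.69 ± 0.23, adjusted p = 0.0734, under the 2-fold limit. In scaffolds the rise with 4T07 over control (2.07 ± 0.68, adjusted p = 0.0564) came from levels of 41.8, 83.5 and 412 CPM, against 26.9, 35.9 and 50.8, the highest again being the scaffold with Tlx1.

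**Figure D3:**
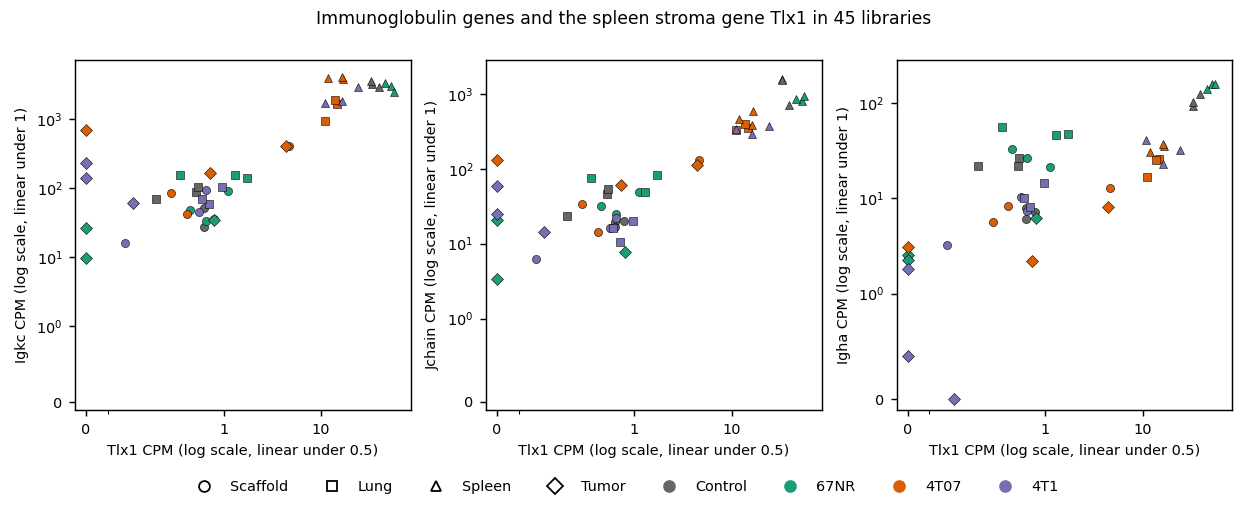
Level of Igkc, Jchain and Igha (y axes, CPM, log scale, linear under 1) against the spleen stroma gene Tlx1 (x axis, CPM, log scale, linear under 0.5) in 45 libraries, with tissue as symbol and group as color. The 3 lungs of the 4T07 group lie near the spleens in Tlx1, Igkc and Jchain, and the 4T07 scaffold and 4T07 tumor with raised Tlx1 lie between. In the Igha panel the 67NR lungs and scaffolds are high at a low Tlx1.

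Jchain, the small protein that links IgM and IgA into multimers, fell in spleens with both invasive lines. It was at 704, 1527 and 1599 CPM in controls, 793, 844 and 929 with 67NR, 383, 461 and 598 with 4T07 and 295, 345 and 373 with 4T1. No 4T07 or 4T1 spleen reached the lowest control or 67NR spleen. The fall against control was -1.25 ± 0.26, adjusted p = 0.00178 with 4T07 and -1.67 ± 0.26, adjusted p = 1.46e-04 with 4T1. Against 67NR spleens neither was called, at -0.57 ± 0.25, adjusted p = 0.124 with 4T07 and -0.99 ± 0.25, adjusted p = 0.00805 with 4T1, inside the 2-fold limit. The change of 67NR over control was -0.68 ± 0.25, adjusted p = 0.152. In lungs Jchain fell with 4T1, at 10.6, 16.3 and 20.1 CPM against 23.6, 45.7 and 53.2 in controls (-1.37 ± 0.26, adjusted p = 0.0022) and 49.5, 75.4 and 81.8 with 67NR (-2.01 ± 0.26, adjusted p = 2.38e-05), and it rose in 4T07 lungs (3.19 ± 0.25, adjusted p = 3.40e-09). In scaffolds it was at 16.8, 19.5 and 19.8 CPM in controls, 25.1, 32.1 and 48.6 with 67NR, 14.1, 34.0 and 132 with 4T07 and 6.28, 16.2 and 22.0 with 4T1. All 67NR scaffolds were above all control scaffolds, without passing the test (0.84 ± 0.56, adjusted p = 0.998). Mzb1, a chaperone of antibody assembly in B cells and plasma cells, gave 8 counts over the 12 spleens, 2 over the 12 lungs and none over scaffolds and tumors, so no level could be compared. The same spleens held 40533 counts of Jchain, and why Mzb1 had so few was not tested.

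Xbp1, the factor that expands the secretory machinery of plasma cells and is active in many other cells, did not pass against control in any of the 3 tissues. It was at 21.4 to 45.3 CPM in the 12 spleens, with all 4 groups overlapping. Between spleen and the other organs its order was unlike that of the antibody genes, since control lungs (65.4, 70.3 and 72.9 CPM) were above control spleens (30.2, 32.5 and 42.9 CPM; log2 fold change of spleen over lung -0.94 ± 0.22, adjusted p = 0.00267). In 4T07 lungs it was at 41.7, 51.6 and 63.8 CPM, below every control lung, at a fold change under the limit (-0.35 ± 0.16, adjusted p = 0.0781).

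Prdm1 was lower in spleens with 4T1, at 6.40, 7.10 and 9.11 CPM against 14.8, 18.1 and 18.8 in controls and 15.9, 19.9 and 20.0 with 67NR. The 4T1 spleens did not overlap either group, and the changes (-0.94 ± 0.23, adjusted p = 0.00583 against control and -0.95 ± 0.23, adjusted p = 0.00535 against 67NR) were just inside a factor of 2. In 4T07 lungs Prdm1 was at 16.5, 16.9 and 19.9 CPM, below the other 9 lungs at 29.7 to 41.3 CPM (-1.01 ± 0.17, adjusted p = 4.03e-05 against control), while the antibody genes rose. The fold change was at the limit of 2, and the call was lost with any of 8 of the 12 lungs left out and by DESeq2 (-1.06 to -0.92 over left-out lungs). These lungs carried spleen stroma markers, and Prdm1 was at 9.16 to 15.6 CPM in 4T07 spleens. The part of spleen stroma markers in the fall was not tested. In scaffolds Prdm1 was highest with 4T07, at 56.2, 56.3 and 64.5 CPM against 28.6, 36.8 and 38.4 with 67NR (0.70 ± 0.17, adjusted p = 0.0171), and the 2 groups did not overlap.

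Sdc1 also went down in 4T07 lungs, where it was at 28.9, 39.2 and 50.8 CPM against 109, 119 and 121 in controls (-1.49 ± 0.19, adjusted p = 2.35e-06). The summed level of 7 epithelial markers was 157 to 351 CPM in these lungs and 639 to 708 in controls, with none of the 7 at 0 in either group, and its part in the Sdc1 level was not tested. Sdc1 was at 8.59 to 15.9 CPM in 4T07 spleens, and the part of the spleen stroma markers was not tested either. In spleens Sdc1 was at 7.77, 8.57 and 8.63 CPM with 4T1 and 12.3, 14.2 and 20.8 in controls (-0.66 ± 0.26, adjusted p = 0.0671), without overlap and within the 2-fold limit. In scaffolds the groups with 4T07 and 4T1 tumors were above all control scaffolds, at 112 to 145 against 60.0 to 98.3 CPM, with adjusted p of 0.14 and 0.346.

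In primary tumors 5 antibody and joining chain genes (Igkc, Ighm, Jchain, Ighg1 and Ighg2b) were higher in 4T07 than in 67NR. Igkc was at 9.51, 26.0 and 33.9 CPM in 67NR, 167, 409.6 and 689 in 4T07 and 61.5, 138 and 234 in 4T1 tumors. Both invasive lines were above every 67NR tumor, by log2 fold changes of 3.96 ± 0.55, adjusted p = 4.52e-05 for 4T07 and 2.46 ± 0.53, adjusted p = 0.0022 for 4T1, and 4T1 was below 4T07 (-1.50 ± 0.48, adjusted p = 0.0482) with overlapping ranges. This last call was lost by DESeq2 and without 67NR replicate 3, 4T07 replicate 1 or 3 or 4T1 replicate 2 or 3, at log2 fold changes of -2.04 to -0.93 over all left-out tumors and adjusted p of up to 0.232. Ighm was at 41.4, 56.2 and 60.7, 187, 279.7 and 426 and 47.7, 76.7 and 90.3 CPM in the same order of lines. It rose in 4T07 over 67NR (2.25 ± 0.28, adjusted p = 1.68e-05) and was lower in 4T1 than in 4T07 (-2.00 ± 0.27, adjusted p = 1.74e-04), while 4T1 over 67NR was 0.25 ± 0.28, adjusted p = 0.536. The highest Ighm level in 4T07, 426 CPM, was in replicate 1, the tumor with raised Tlx1. Both Ighm calls were kept with each tumor left out in turn. Jchain was at 3.36, 7.79 and 20.9, 61.1, 112 and 131 and 14.2, 24.6 and 59.8 CPM, a rise of 3.00 ± 0.54, adjusted p = 4.33e-04 in 4T07, where every tumor lay above every 67NR tumor.

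The 2 IgG members were at very low counts in 67NR tumors. Ighg1 had 2 counts and Ighg2b 3 counts over the 3 tumors of 67NR, against 826 and 211 in 4T07 and 344 and 240 in 4T1. For Ighg1 the ratio of pooled CPM was 319 (95% interval 88.0 to 2637) for 4T07 and 124 (95% interval 34.2 to 1032) for 4T1, and for Ighg2b it was 54.3 (95% interval 18.3 to 265) and 57.9 (95% interval 19.6 to 283), intervals that cover counting error only. Both genes passed in both comparisons, with adjusted p of 0.00243 and 0.023 for Ighg1 and 0.0109 and 0.0181 for Ighg2b. Of these calls, that of Ighg1 in 4T07 was kept with each tumor left out in turn. That of Ighg2b in 4T07 was lost without 4T07 replicate 3 (adjusted p = 0.0988), that of Ighg1 in 4T1 without any 67NR tumor or 4T1 replicate 1 (adjusted p of up to 0.0873), and that of Ighg2b in 4T1 without 67NR replicate 1 or 2 or 4T1 replicate 1 (adjusted p of up to 0.0901). A 4T07 tumor (replicate 3) held most of the Ighg1 and Ighg2b counts of its group. Ighg2b was at 50.8 CPM in it and at 4.01 and 2.00 in the others, and Ighg1 at 213 CPM where the other 4T07 tumors were at 6.02 and 7.80. That tumor also had the highest summed level among the tumors of the 11 B cell markers, 426 CPM, and of the 5 lymph node stroma markers measured, 109 CPM, and their part in the level was not tested. In 4T1 tumors Ighg1 was at 4.75, 16.0 and 44.6 CPM and Ighg2b at 1.73, 10.2 and 33.3 CPM, above every 67NR tumor. The lymph node stroma markers summed to 107, 63.1 and 12.7 CPM in 4T1 replicates 1, 2 and 3, where Ighg1 was at 44.6, 16.0 and 4.75, and to 6.15 to 15.2 CPM in 67NR tumors, with Ccl19 and Ccl21a at 0 in both lines. The B cell markers summed to 108 to 193 and 94.8 to 104 CPM.

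**Figure D4:**
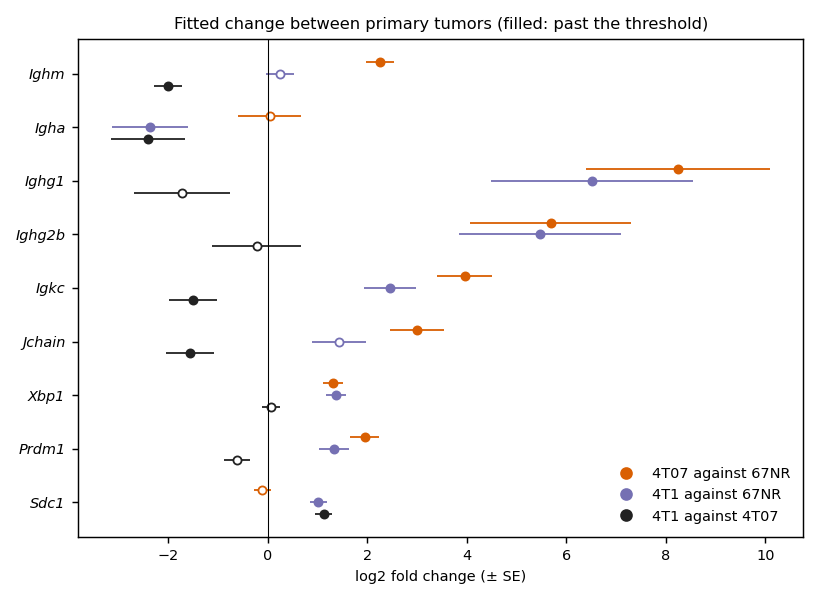
Fitted log2 fold change (x axis, ± SE) of the 9 tested members between primary tumors of the 3 lines, with 1 color per comparison and filled points for members past the threshold. The comparisons share groups. Antibody genes other than Igha, Xbp1 and Prdm1 lay to the right of 0 in 4T07 against 67NR, and Sdc1 did so in 4T1 against both other lines. The points of Ighg1 and Ighg2b against 67NR rest on 2 and 3 counts in 67NR.

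Xbp1, Prdm1 and Sdc1 differed between tumor lines as well. Xbp1 was at 16.1, 23.8 and 26.3 CPM in 67NR, 62.8, 65.5 and 66.0 in 4T07 and 60.2, 62.5 and 73.4 in 4T1, and rose in both (1.30 ± 0.20, adjusted p = 1.19e-04 and 1.36 ± 0.20, adjusted p = 9.48e-05). Prdm1 was at 4.03, 6.21 and 6.71, 22.3, 25.7 and 30.2 and 12.3, 15.2 and 21.8 CPM and rose in both (1.95 ± 0.30, adjusted p = 9.76e-05 and 1.34 ± 0.30, adjusted p = 0.00295), without overlap with 67NR. Sdc1 was higher in 4T1, at 167, 173 and 186 CPM, than in 67NR (63.5, 73.6 and 90.6) or 4T07 (72.9, 80.7 and 96.9), by 1.01 ± 0.17, adjusted p = 2.76e-04 and 1.12 ± 0.17, adjusted p = 3.54e-04. The rise of Sdc1 over 67NR was inside a factor of 2 when any of 5 single tumors was left out (0.87 to 1.12 over all 9). The summed level of the 7 epithelial markers was 24.0 to 34.7 CPM in 67NR, 179 to 244 in 4T07 and 1008 to 1119 in 4T1 tumors, with none of the 7 at 0 in any line. Both Xbp1 and Sdc1 are used by epithelial cells, and the part of those cells in these levels was not tested.

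The make-up of the antibody counts was compared as shares, which do not depend on how much of a library is antibody. The shares of Ighm, Igha and the IgG genes were taken over the counts of 8 heavy chain constant genes, and that of Igkc over 5 light chain constant genes. Each was tested over all groups of a tissue with an exact permutation test of the variation between group means, adjusted over 16 tests, which does not say which groups differ. The IgA share was highest with 67NR in each tissue. It was 23.4% ± 7.89 (SD, n = 3) in 67NR scaffolds, 9.88% ± 1.13 in controls, 5.31% ± 3.52 with 4T07 and 9.24% ± 4.99 with 4T1 (exact permutation test, adjusted p = 0.024). In lungs it was 18.8% ± 0.565 with 67NR, 11.9% ± 1.56 in controls and 8.38% ± 0.709 with 4T1. It was lowest, at 1.26% ± 0.227, in the 4T07 lungs, which carried spleen stroma markers (adjusted p = 5.19e-04 by the exact permutation test, from the smallest p that 15400 divisions allow). In spleens it was 4.52% ± 0.203 with 67NR, 2.59% ± 0.892 in controls, 1.41% ± 0.132 with 4T07 and 1.68% ± 0.617 with 4T1 (exact permutation test, adjusted p = 0.00727). Tumors gave 6.06% ± 2.64, 1.08% ± 0.631 and 0.37% ± 0.412 for 67NR, 4T07 and 4T1 (exact permutation test over 280 divisions, adjusted p = 0.0163). In scaffolds and tumors this call was lost without some single libraries, at adjusted p of up to 0.0718 and 0.0667.

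The IgM share was lowest with 67NR in scaffolds, at 66.8% ± 9.78 against 83.5% ± 2.62 in controls, 84.1% ± 5.80 with 4T1 and 88.2% ± 4.10 with 4T07 (exact permutation test, adjusted p = 0.0205). In lungs it was 65.8% ± 2.35 in controls, 60.8% ± 0.927 with 67NR, 69.6% ± 3.42 with 4T1 and 89.3% ± 1.44 with 4T07, the last close to the 90.1% ± 1.40 of 4T07 spleens (exact permutation test, adjusted p = 6.93e-04). With the 4T07 lungs left out, the test of IgA shares over the other 9 lungs gave an adjusted p of 0.0143 (exact permutation test). IgG shares in tumors reached 26.1% ± 16.0 in 4T1 and 17.9% ± 23.4 in 4T07, against 1.13% ± 0.994 in 67NR, with a spread that left an adjusted p of 0.274 (exact permutation test). The kappa share of light chain counts in spleens went from 56.4% ± 2.48 in controls to 67.8% ± 2.95 with 67NR, 78.6% ± 2.76 with 4T1 and 85.7% ± 2.43 with 4T07 (exact permutation test, adjusted p = 5.19e-04), and no 4T07 or 4T1 spleen overlapped a control or 67NR spleen. In lungs its mean was lowest in controls, at 53.0% ± 1.65, and highest with 4T07, at 72.6% ± 4.11. It was 69.1% ± 7.10 with 67NR and 62.4% ± 4.00 with 4T1 (exact permutation test over the 4 groups, adjusted p = 0.0158).

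**Figure D5:**
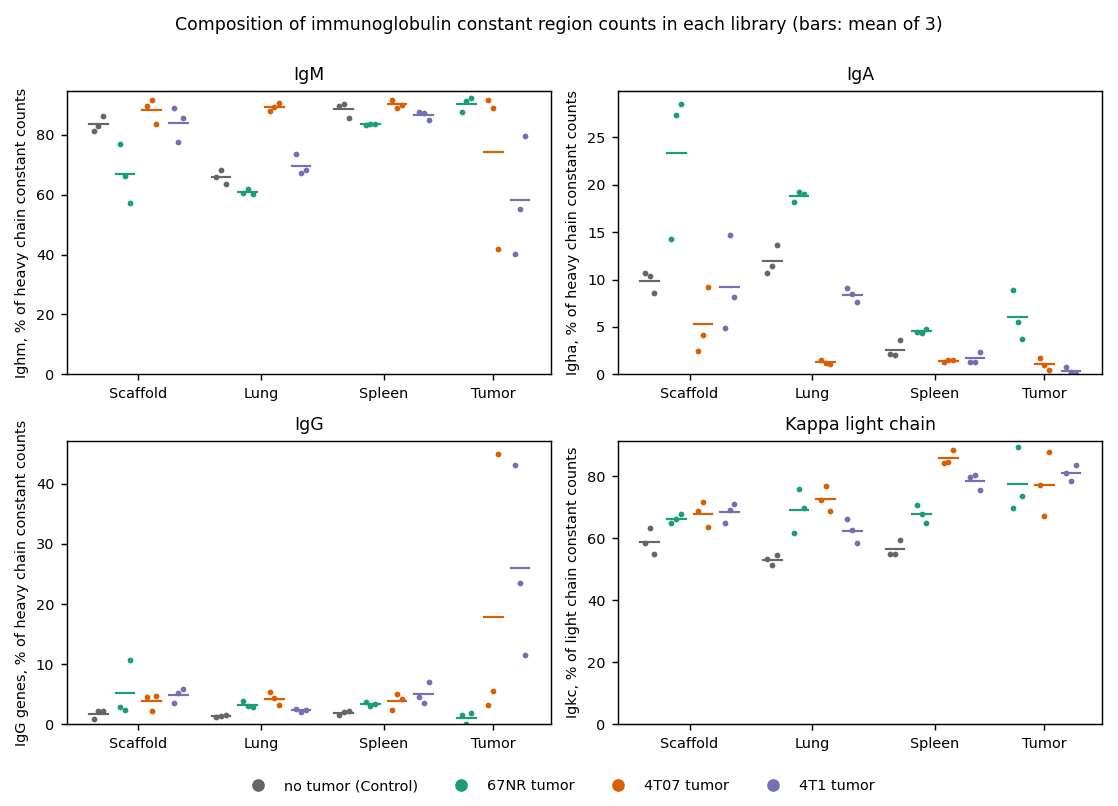
Share of Ighm, Igha and the IgG genes in heavy chain constant counts, and of Igkc in light chain constant counts (y axes, percent), in each of 45 libraries by tissue and group, with a bar at the mean of 3. Igha took its largest share with 67NR in each tissue, the kappa share in spleens was lowest in controls, and IgG shares were spread widely among the 4T07 and 4T1 tumors.

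Whether a change against control differed between tissues was tested as an interaction, at an adjusted p under 0.10. For 67NR no member passed in any of the 3 pairs of tissues, where 0.00375%, 0.0075% and 0.0263% of genes passed for lung against scaffold, spleen against scaffold and spleen against lung, with 1, 3 and 3 members at an unadjusted p under 0.05 (edgeR). For 4T07, 5 members differed between lung and scaffold (20.6%), 4 between spleen and scaffold (16.7%) and 8 between spleen and lung (22%). Without the 4T07 scaffold with raised Tlx1, 7 members differed between lung and scaffold and 3 between spleen and scaffold. The difference of Igkc between lung and scaffold then went from 1.94 to 3.47, and that of Jchain between spleen and scaffold from -2.82 to -1.48. For Ighg2b the change with 4T07 in spleen minus that in lung was -4.75 ± 0.67 on the log2 scale (adjusted p = 2.25e-06). For 4T1, none differed between lung and scaffold (1.05%, with 2 at an unadjusted p under 0.05), 3 did between spleen and scaffold (15.2%) and 1 between spleen and lung (16.8%). That 1 was Prdm1, whose change with 4T1 was lower in spleen than in lung (difference -0.69 ± 0.26, adjusted p = 0.084).

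Related genes were read beside the members. In spleens with 4T07 tumors, the other antibody constant regions had 1 of 8 higher and 5 of 8 lower, among 8.26% of genes higher and 10.3% lower. Their median log2 fold change was -1.11, against -0.09 for all genes. The 1 that rose was Ighg2c (1.27 ± 0.29, adjusted p = 0.00385). Of the 10 other plasma cell genes, Fkbp11, an isomerase of the secretory pathway, rose (1.03 ± 0.33, adjusted p = 0.031), while Tnfrsf17 (BCMA, a survival receptor of plasma cells, -1.81 ± 0.36, adjusted p = 0.00146) and Derl3 (-1.00 ± 0.27, adjusted p = 0.0124) fell. With 4T1, Tnfrsf17 fell (-1.67 ± 0.36, adjusted p = 0.00255), Pou2af1 (a coactivator of antibody genes) fell (-1.00 ± 0.22, adjusted p = 0.00299) and Fkbp11 rose (1.31 ± 0.33, adjusted p = 0.00724). Of 12 secretory pathway genes, 1 (Manf) rose with 4T07 and 2 with 4T1, Sec61b (1.72 ± 0.40, adjusted p = 0.00385) and Manf (1.57 ± 0.20, adjusted p = 2.73e-05), and none fell, where 8.26% of all genes rose with 4T07 and 9.84% with 4T1. Single left-out spleens ended the calls of Fkbp11, Derl3 and Manf with 4T07 (4, 3 and 4 of 12 spleens) and of Pou2af1 with 4T1 (3 of 12).

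B cell markers fell in these spleens. With 4T07, 7 of 11 were lower (10.3% of all genes), led by Cr2 (-2.04 ± 0.23), Bank1 (-1.84 ± 0.18) and Cd22 (-1.59 ± 0.28), and with 4T1 9 of 11 (10%), led by Ms4a1 (-1.97 ± 0.19), Cd79b (-1.73 ± 0.22) and Cd22 (-1.60 ± 0.28). Their summed level was 2242 to 2821 CPM in controls, 2519 to 2811 with 67NR, 879.7 to 946 with 4T07 and 628 to 1045 with 4T1. Igkc per 100 CPM of these markers was 136 ± 29.8 (SD, n = 3) in control spleens, 110.2 ± 15.1 with 67NR, 427 ± 20.8 with 4T07 and 281 ± 12.0 with 4T1. For Igha the same ratio was 4.35 ± 0.24 in controls and 5.75 ± 0.655 with 67NR. It was 3.72 ± 0.251 with 4T07 and 4.40 ± 1.83 with 4T1, and the part of the B cell markers in the Igha level was not tested. The summed level of the neutrophil markers was higher in the same spleens, going from 978 to 1721 CPM in controls to 24847 to 30490.5 with 4T07 and 12524 to 32772 with 4T1. Their part in the levels of Igha and Jchain was not tested.

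In the other tissues the related genes went as follows. In 67NR lungs, 1 of 7 survival and recruitment factors rose (2.52% of all genes), Cxcl13, a chemokine that draws B cells (1.61 ± 0.22, adjusted p = 6.32e-04). With 4T07, 6 of 11 B cell markers rose in lungs, among them Cd79a (3.71 ± 0.58) and Blk (2.87 ± 0.29), and 7 of 7 other constant regions did, where 15.3% of all genes rose. Of the plasma cell genes there, 8 of 10 rose, led by Irf4 (2.83 ± 0.26), Derl3 (2.82 ± 0.39) and Tnfrsf13b (2.23 ± 0.17), beside the spleen stroma markers given above. With 4T1 no B cell marker, other constant region or other plasma cell gene passed in lungs. In those lungs Fcgr4, Fcgr3 and Fcer1g rose among the 8 antibody receptors (1.91 ± 0.22, 1.41 ± 0.18 and 1.24 ± 0.17). These are receptors or receptor chains of myeloid cells. The share of all genes that rose in this comparison is not given here. In 4T07 scaffolds Fkbp11 fell against control (-1.11 ± 0.22, adjusted p = 0.0042) while 5 members rose. The fall of Fkbp11 was inside a factor of 2 without control replicate 1, and the 5 rises were lost without the scaffold with raised Tlx1.

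Between 4T07 and 67NR tumors 17.1% of all genes were higher in 4T07. The other constant regions had 7 of 7 higher, and B cell markers 7 of 11, among them Fcer2a and Blk. Fcer2a and Blk had 2 and 3 counts in 67NR, with pooled CPM ratios of 24.7 (95% interval 6.57 to 208) and 11.1 (95% interval 3.54 to 55.8). Other plasma cell genes had 4 of 10 higher, Pou2af1 (4.41 ± 0.96, adjusted p = 0.00188) being the most raised. Some were lower, Fkbp11 the most (-1.25 ± 0.21, adjusted p = 1.96e-04), and the share of all genes lower in 4T07 is not given here. Of the survival and recruitment factors, 5 of 6 rose, led by Il6 (1 count in 67NR, pooled CPM ratio 50.2 (95% interval 8.69 to 2012)), Tnfsf13b (BAFF, a survival factor of B cells, 3.41 ± 0.45) and Vcam1 (2.79 ± 0.18). With 4T1 against 67NR, Vcam1 and Tnfsf13b also rose (2.03 ± 0.18 and 1.53 ± 0.50), as did Il6, with a pooled CPM ratio of 38.3 (95% interval 6.59 to 1543), and against 4T07 tumors Tnfsf13b, Cxcl13 and Cxcl12 were lower in 4T1 (-1.88 ± 0.36, -1.25 ± 0.36 and -1.21 ± 0.18). The calls of Tnfsf13b over 67NR and Cxcl13 against 4T07 were lost without 3 and 4 single tumors of 9, at adjusted p of up to 0.121 and 0.135, and that of Blk in 4T07 without 3.

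The genes whose pattern was most like that of Igkc were sought over 45 libraries, by Pearson's r of log2(CPM + 1) after subtracting the mean of each tissue, among 12030 genes of at least 5 CPM. The 5 most alike included Tspan32 (r = 0.920), Bcl11a (0.883), Tent5c (0.879) and Fcrla (0.873). For Jchain they included Fcrla (0.928), Ms4a1 (0.883), Coch (0.875) and Marco (0.870). Without the 4T07 lungs, the 5 genes most like Igkc were Tspan32 (0.864), Pou2af1 (0.863), Fcmr (0.836), Tent5c (0.828) and Bcl11a (0.824), and those most like Jchain were Fcrla (0.895), Ms4a1 (0.884), H2-Ob (0.850), Gm42870 (0.848) and Pax5 (0.823). Among the members, r with Igkc was 0.916 for Ighm and 0.898 for Jchain, but 0.164 for Igha, 0.201 for Xbp1, 0.163 for Prdm1 and -0.322 for Sdc1. Without the 4T07 lungs the same values were 0.859, 0.844, 0.220, 0.434, 0.567 and 0.209. The libraries share tissues and groups, so these values describe the set and are no test.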

How the data were processed

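RNA of 45 scaffolds, lungs, spleens and tumors was sequenced with a 3' tag kit (QuantSeq), and the authors deposited raw read counts per gene for all libraries. The submitters' processing notes name Trim Galore 0.5.0, STAR 2.6.0 and featureCounts. The genome build, annotation, strand setting and use of molecular identifiers are not given in the sources used here. Each tissue was fitted with edgeR 4.0.16 (R 4.3.3, TMM scaling, quasi-likelihood test, Benjamini-Hochberg adjustment) on genes with more than 10 counts over its libraries, and log2 fold changes come from these fits. An adjusted p under 0.10 (0.05 in tumors) and a fold change over 2 were required, and an adjusted p under 0.10 alone for interactions. An exact permutation test of 3 against 3 libraries cannot go below 0.1, so single members were tested in the fits across all genes. Plain CPM use the library total, so CPM ratios and fitted fold changes can differ. A count of 3 equals 0.367 to 0.859 CPM in these libraries, and intervals cover counting error only. Shares were tested by exact permutation. DESeq2 1.42.0, other scaling, filters and left-out libraries were alternatives. The members and gene lists were chosen with earlier results of these data known. All members were named, with at most the 3 most changed genes in each direction of the other lists and the 5 genes most like Igkc and Jchain, apart from items that are not reported here. The spleen stroma list was added after the values were seen.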

Additional observations from a re-analysis of the deposited data

Results flagged for a closer look

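Whether a change against control differed between 2 tissues was tested as an interaction in edgeR, and 21 member values passed at an adjusted p under 0.10. Each value is the log2 fold change in the first tissue minus that in the second. With 4T07, the change in lung minus that in scaffold differed for Ighm (1.79), Igkc (1.94), Jchain (1.50), Prdm1 (-1.41) and Sdc1 (-2.07). With 4T07, the change in spleen minus that in scaffold differed for Igha (-1.71), Ighg2b (-2.95), Ighm (-2.38) and Jchain (-2.82). With 4T07, the change in spleen minus that in lung differed for Igha (-1.36), Ighg1 (-3.24), Ighg2b (-4.75), Ighm (-4.17), Igkc (-3.62), Jchain (-4.32), Prdm1 (0.78) and Sdc1 (1.44). With 4T1, the change in spleen minus that in scaffold differed for Igha (-1.34), Prdm1 (-0.88) and Sdc1 (-1.13). With 4T1, the change in spleen minus that in lung differed for Prdm1 (-0.69). All 13 of the values that involve 4T07 lungs rest on the lungs that carried spleen stroma markers, and those that involve 4T07 scaffolds include the scaffold with raised Tlx1. Without that scaffold the values of Ighm, Igkc and Jchain for lung minus scaffold were 2.94, 3.47 and 2.84. Those of Ighm, Jchain and Ighg2b for spleen minus scaffold were -1.23, -1.48 and -1.79, the last no longer passing (adjusted p = 0.195). The tissues share no labelled animals, and no test for single outlying samples was run on groups of 3 libraries.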

How the results depend on the processing

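Each alternative was compared over the member values called in the main fit or in that alternative, and none of these reversed. The sets therefore differ between alternatives. DESeq2 kept the call or its absence in 76 of 84 values, no count filter in 64 of 77, a minimum of 10 counts in every library in 45 of 53, and leaving out single libraries in 810 of 918. With the 4T07 lungs left out of the fit, 14 of 14 values kept theirs. These values came from lungs and from differences between tissues, among them spleen minus scaffold, which compares no lungs. Counts of members called that moved by over 1.5 times follow. DESeq2 gave 1 for 67NR against control and 1 for 4T1 against 4T07 scaffolds, and 3 for 4T1 against 4T07 tumors. Without a count filter there were 2 for 67NR against control, 4 for 4T07 against 67NR, 3 for 4T1 against 67NR and 4 for 4T1 against 4T07 scaffolds. With at least 10 counts in every library, which leaves fewer members tested in scaffolds, lungs and tumors and all 9 in spleens, there were 3 for 4T07 against control, 1 for 4T07 against 67NR, 0 for 4T1 against 67NR and 1 for 4T1 against 4T07 scaffolds, 4 for 4T07 against control lungs, 5 for 4T1 against control and 4 for 4T1 against 67NR spleens, and 4 for 4T1 against 67NR tumors. With only the 2 compared groups fitted there was 1 for 67NR against control and 0 for 4T1 against 67NR scaffolds. The causes were not tested.

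Leaving out single libraries gave 0 to 5 members for 4T07 against control scaffolds (0 without 4T07 replicate 1), 1 to 4 for 4T07 against 67NR, 0 to 1 for 4T1 against 67NR and 0 to 1 for 4T1 against 4T07 scaffolds. It gave 1 to 2 for 67NR and 1 to 2 for 4T1 against control lungs. In spleens it gave 0 to 1 for 67NR against control (1 without control replicate 3), 2 to 4 for 4T1 against 67NR (4 without 67NR replicate 1) and 0 to 1 for 4T1 against 4T07 (1 without 4T1 replicate 2). In tumors it gave 4 to 7 for 4T1 against 67NR (4 without 67NR replicate 1 or 4T1 replicate 1) and 2 to 5 for 4T1 against 4T07. It gave 1 to 4 for lung against scaffold of controls (4 without control lung replicate 3), and 5 for the 4T1 difference of spleen and scaffold without 4T07 scaffold replicate 1. Adjusted p of shares, by exact permutation, ranged over left-out libraries from 0.0134 to 0.0649 for IgM, 0.0134 to 0.0718 for IgA and 0.0297 to 0.181 for kappa in scaffolds, 0.0229 to 0.177 for IgG in spleens and 0.0163 to 0.0667 for IgA in tumors. The IgM share in spleens had an adjusted p of 0.118 over member heavy chains alone (exact permutation test). No paired analysis was possible because the labels do not link the tissues of a mouse and give no replicate numbers. Mzb1 had too few counts to be compared, and IgG genes in scaffolds rest on few counts.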

Other observations

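Cell cycle genes listed for dividing plasma cell precursors, which mark dividing cells of any type, rose in spleens with 4T07 in 4 of 5 cases (8.26% of all genes) and with 4T1 in 3 of 5 (9.84%). Ccnb1 rose by 1.79 ± 0.21 with 4T07 and Cdk1 by 2.51 ± 0.29 with 4T1. Of the germinal centre and class switch genes, 2 of 8 rose (8.26% of all genes) and 1 of 8 fell (10.3%) with 4T07 in spleens, the last being Cd40 (-1.44 ± 0.30, adjusted p = 0.00197), a receptor through which T cells activate B cells. With 4T1, 2 of 8 fell (10% of all genes), Cd40 (-1.35 ± 0.30) and Rgs13, which had 10 counts over control spleens and 0 over 4T1 spleens.

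Among antibody receptors in spleens, Fcmr, the IgM receptor of B cells, fell with 4T07 (-1.14 ± 0.26, adjusted p = 0.00344) and 4T1 (-1.17 ± 0.26, adjusted p = 0.00264). The fall with 4T07 was inside a factor of 2 without control replicate 3. Pigr, which carries IgA and IgM across epithelia, fell with 4T07 (-2.52 ± 0.74, adjusted p = 0.0203), from 34 counts over control and 5 over 4T07 spleens.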
